A study of Mus musculus with 7 samples.

Results

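The 9 Hox genes and transcripts Hoxa5, Hoxa7, Hoxa9, Hoxa10, Hoxb2, Hoxb3, Hoxb3os, Hoxb4 and Hoxb5, together with Meis1, were followed through mouse bone marrow stem and progenitor cells. They are 10 of the 32285 genes counted, were taken by symbol from the deposited gene lists, and all 10 were found. The cells came from bone marrow sorted as LSK cells, which lack lineage markers and carry the surface proteins Sca-1 and cKit. Three-prime single-cell RNA libraries were made from 3 samples labelled B4galt1 KO (genotype B4-/-) and 4 labelled WT, all on the mixed strain background 129S1/C57Bl/6. B4galt1 codes for a galactosyltransferase that works on glycoproteins, and its knockout is described as full. No age, sex or further agent is given for either group, and the labels call the samples replicates without saying that each came from its own mouse. The p-values below therefore measure the spread between these samples, which may be technical.

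Hox proteins are transcription factors that bind DNA through a homeodomain, and their genes lie side by side in clusters. Meis1 is a homeodomain protein of the TALE class that binds DNA together with Hox and Pbx proteins. In blood, genes of the Hoxa and Hoxb clusters and Meis1 are known for high expression in stem and early progenitor cells and for falling expression as cells mature, and sustained Hoxa9 with Meis1 is known from acute leukemia.

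The members' coordinates are those of GENCODE vM21 on GRCm38. The 4 Hoxa members lie on the minus strand of chromosome 6, from Hoxa5 (52201754 to 52204587) through Hoxa7 (52214491 to 52221854) and Hoxa9 (52223100 to 52231089) to Hoxa10 (52231197 to 52240854). The Hoxb members lie on chromosome 11, with Hoxb5 (96303336 to 96306121), Hoxb4 (96318267 to 96321638), Hoxb3 (96323326 to 96347930) and Hoxb2 (96350525 to 96354012) on the plus strand. Hoxb3os (96343072 to 96354691) is an antisense transcript on the minus strand that runs across Hoxb3 and Hoxb2. Meis1 (18879817 to 19018985) lies on the minus strand of the same chromosome, far from the Hoxb cluster. Reads can be hard to assign in these loci. Hoxa5 overlaps Hoxa3 on its own strand, Hoxb5 overlaps Hoxb5os on the other, and Hoxb3os overlaps Hoxb3 and Hoxb2. Whether the counting used strand is not given in the sources used here, so reads of these partners may not be told apart.

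The coding DNA of the homeodomain's recognition helix, the part that enters the major groove of DNA, is shown for 3 Hox members and for Meis1, to set the classes side by side. Each line gives 45 bases from the longest open reading frame of the gene's transcripts (GENCODE vM21), and capitals mark the codons of the helix core, which begin at TGG in each of them.
Hoxa5: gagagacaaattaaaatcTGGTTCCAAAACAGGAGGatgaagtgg
Hoxa10: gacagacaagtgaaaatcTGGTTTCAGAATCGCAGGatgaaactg
Hoxb2: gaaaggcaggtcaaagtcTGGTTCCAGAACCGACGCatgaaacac
Meis1: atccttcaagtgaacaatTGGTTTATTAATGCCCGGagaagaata
Of the 45 bases, Hoxa5 shared 34 with Hoxa10 and 30 with Hoxb2, and Hoxa10 shared 33 with Hoxb2. Meis1, of the other homeodomain class, shared 18 with Hoxa5, 18 with Hoxb2 and 26 with Hoxa10. Over whole transcripts, the longest run of bases that a member had in common with another Hox gene or Meis1 was between 20 (Hoxb3os) and 58 (Meis1).

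RefSeq promoter sequences (GRCm38.p6) were held for 7 of the 10 members, with 8 start sites. The 250 bases before each start were searched on both strands for TGACAG, the core motif of Meis proteins, for TGATNNAT, a Pbx-Hox motif, and for TATAAA. No start had a match to the first or second motif, which 15.9% and 7.68% of all 32851 promoters of that length held. Only the second start of Hoxa10 matched TATAAA, at 160 bases before the start, where 12.4% of all promoters had a match. That promoter (chr6:52234940-52235189, minus strand) is shown with the match, which reads on the opposite strand, in capitals, beside that of Hoxb4 (chr11:96318017-96318266, plus strand), which held none of the motifs.
Hoxa10: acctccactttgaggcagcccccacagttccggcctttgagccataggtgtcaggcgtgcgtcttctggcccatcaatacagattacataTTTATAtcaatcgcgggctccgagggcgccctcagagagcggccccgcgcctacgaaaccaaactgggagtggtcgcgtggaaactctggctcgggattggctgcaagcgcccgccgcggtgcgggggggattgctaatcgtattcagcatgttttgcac
Hoxb4: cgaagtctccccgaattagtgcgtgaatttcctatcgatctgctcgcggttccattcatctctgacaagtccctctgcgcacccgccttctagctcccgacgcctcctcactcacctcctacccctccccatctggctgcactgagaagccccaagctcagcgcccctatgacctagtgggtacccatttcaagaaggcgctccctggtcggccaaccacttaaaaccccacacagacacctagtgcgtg
CpG dinucleotides numbered between 3 (Hoxa9) and 28 (Hoxa5) in these 8 stretches, against a median of 6 over all promoters.

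The libraries held 14970791 to 89747946 UMIs (unique molecular identifiers, 1 per counted RNA molecule), and 24430 cells were kept. The libraries use separate sets of cell barcodes: KO replicate 3 and WT replicate 4 share 1 set (called list B here), and the other 5 libraries share another (list A). The lists also differ in the share of barcodes kept as cells (96.2% and 98.3% in list B, 32.4% to 49.9% in list A) and in the share of UMIs on ribosomal protein genes (31.7% and 31.8%, against 14.8% to 22.3%). Each list holds both labels, so the comparison of labels carried the list as a covariate. KO replicate 3 and WT replicate 4 had 88 cell barcodes in common. The number that chance would give was not worked out, so nothing is read from it. Xist and the Y-linked Ddx3y split the libraries differently again, with Xist high in KO replicates 1 and 2 and WT replicates 1 and 2. B4galt1 itself stood at 51.2, 55.6 and 27.4 CPM (UMIs per 1000000 UMIs of the sum) in the KO libraries and at 56.4, 69.2, 56.7 and 34.8 CPM in the WT libraries. The ranges of the labels overlap over all 7 libraries, while within each list every KO library lay below every WT library. The log2 difference in all kept cells, with the list as covariate, was -0.14 (SE 0.12, edgeR adjusted p 0.537). Which exons were removed is not given, and counts outside them check nothing, so KO and WT mean the libraries so labelled throughout.

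Cells were sorted into states by the summed UMIs of marker genes, none of them a member. Stem-gated cells carried at least 4 UMIs of Procr, Fgd5, Hlf, Mecom, Mllt3, Slamf1 and Ctnnal1 and met no lineage gate before it, and 515 to 3111 cells per library fell there. Other gates used here took cells by Flt3, by Dntt (a lymphoid priming enzyme), by Mpo (myeloperoxidase), by primary granule genes, by megakaryocyte genes and by erythroid genes. The gate meant for T and NK cells was met almost only through Nkg7. Cd3e had 0 to 41 UMIs in it and Mpo 912 to 6342 CPM, so these cells are called Nkg7-gated and given no cell type. Kit was detected in every gated state, as was Ly6a, which encodes Sca-1.

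Meis1 was read in nearly all stem-gated cells. Its level there was 1140, 1686 and 592 CPM in the 3 KO libraries and 1259, 1712, 1207 and 616 CPM in the 4 WT libraries, from 54167 UMIs in all. The 2 libraries of list B were the lowest of the 7, at 2.32-fold less than the mean of list A, while within each list the labels lay close together. Hoxa9, a gene of the posterior Hoxa group, was lower in stem-gated cells of list A and higher in those of list B. It stood at 103, 88.6 and 205 CPM in KO and at 133, 127, 143 and 238 CPM in WT, so list B was 1.86-fold above list A. Hoxa10, its neighbour, was likewise lower in list A than in list B, while the labels overlapped within list A. It stood at 20.2, 14.5 and 37.8 CPM in KO and at 18.4, 18.2, 24.9 and 35.5 CPM in WT.

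Hoxb4, whose forced expression is known to expand blood stem cells in culture, stood at 23.5, 19.9 and 8.03 CPM in KO and at 20.6, 20.6, 21.4 and 7.06 CPM in WT. List A libraries spanned 19.9 to 23.5 CPM, and both list B libraries lay 2.81-fold lower on average. Hoxb3 stood at 20.9, 31.3 and 9.43 CPM in KO and at 18.4, 30.6, 24.1 and 6.89 CPM in WT, again with both list B libraries lowest. Hoxb5, which is known to mark long-term stem cells, had few UMIs, 340 over all stem-gated cells, and stood at 3.91, 5.73 and 7.91 CPM in KO and 1.90, 3.17, 2.87 and 5.84 CPM in WT. For 8 of the 10 members the lists did not overlap in stem-gated cells. How many of all genes separate this way was not counted, so the count is not read as a trait of the members. Over the genes past the filter in all kept cells, the first principal component (65.8% of the variance) also set the lists apart. List B was higher for Hoxa7, Hoxa9, Hoxa10 and Hoxb5 and lower for Hoxa5, Hoxb3, Hoxb4 and Meis1. What sets the lists apart was not tested, and levels of a member should be set side by side within a list. Hoxb2 spanned 3.03 to 7.14 CPM without a difference in range between lists.

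**Figure D1:**
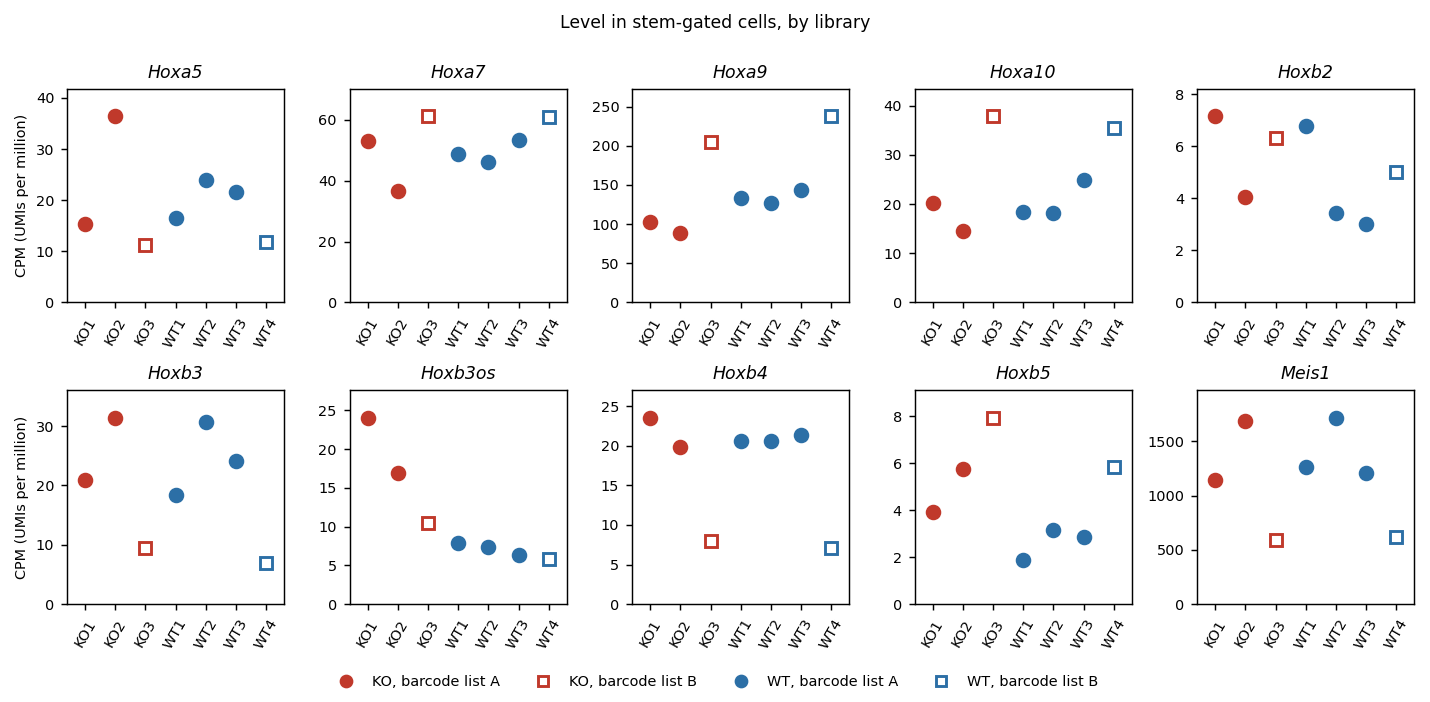
Level of each of the 10 genes in stem-gated cells (CPM, linear axes from 0), with 1 point per library. Red marks KO and blue WT, and filled circles mark barcode list A and open squares list B. For 8 genes the open squares lie apart from the filled circles. For Hoxb3os the 3 KO libraries (10.4 to 24.0 CPM) lie above the 4 WT libraries (5.84 to 7.86 CPM). How many of all genes separate in either way was not counted.

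The first question was how the genes differ between stem-gated cells and the other states of the same libraries. No member rose in any of the other states. The number that fell was 1 in the Flt3 gate, 2 in the megakaryocyte, 6 in the Dntt, 8 in the Mpo, 9 in the granule and 10 in the erythroid gate, and is given below beside the share of all genes called, which also differed between these comparisons. Dntt-gated cells had less of 6 members than stem-gated cells, all 5 Hoxb members and Meis1, and no member was higher (edgeR adjusted p below 0.05, library as a block). Over all 14572 genes tested, 14.7% were called lower there and 17.0% higher. Hoxb5 fell most, by 2.49 on the log2 scale (SE 0.35, edgeR adjusted p 3.82e-08), from 26 UMIs in 2737 cells. Meis1 stood at 678, 814 and 345 CPM in the Dntt-gated cells of KO and at 640, 795, 621 and 379 CPM in WT, below the stem-gated level in 7 of 7 libraries. Its log2 difference was -0.83 (SE 0.17, edgeR adjusted p 0.000101). Hoxb3 fell by 1.01 on the log2 scale (SE 0.18), Hoxb3os by 1.03 (SE 0.24), Hoxb2 by 1.43 (SE 0.31) and Hoxb4 by 0.54 (SE 0.16).

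The Hoxa members did not pass the test in Dntt-gated cells. Hoxa9 stood at 109, 96.2 and 228 CPM in KO and 155, 124, 162 and 259 CPM in WT, which gave a log2 difference of 0.21 (SE 0.11, edgeR adjusted p 0.138) from stem-gated cells. Hoxa7 had a log2 difference of 0.14 (SE 0.11) and Hoxa5 of -0.25 (SE 0.15). Hoxa10 missed the threshold at -0.43 (SE 0.18, edgeR adjusted p 0.0545), and passed it with KO replicate 1 left out (-0.39, adjusted p 0.0385) or KO replicate 2 left out (-0.47, adjusted p 0.0388). Against non-cycling stem-gated cells alone, Hoxa5 (-0.38, SE 0.16, edgeR adjusted p 0.0441) and Hoxa10 (-0.56, SE 0.17, edgeR adjusted p 0.00673) did fall, while Hoxa7 and Hoxa9 did not pass. Whether the Hoxa and Hoxb members differ from each other in this change was not tested.

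Mpo-gated cells had less of 8 members, and Hoxa7 and Hoxb4 did not pass the test. Of all genes, 11.5% were called lower and 13.4% higher. Hoxb5 fell by 2.07 (SE 0.30) and Hoxb2 by 1.22 (SE 0.28) on the log2 scale, and the other 6 by 0.47 (Hoxa9) to 0.75 (Hoxb3). Hoxa9 stood at 82.2, 52.4 and 149 CPM in the Mpo-gated cells of KO and 78.1, 80.8, 111 and 171 CPM in WT, and was below its stem-gated level in 7 of 7 libraries. Hoxb3os, with a log2 difference of -0.64 (edgeR adjusted p 0.0199), lost its call in list A alone (adjusted p 0.0653) and in the WT libraries alone (adjusted p 0.054).

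In granule-gated cells, marked by primary granule genes of the neutrophil lineage, 9 members fell, where 30.2% of all genes were called lower and 29.5% higher. Meis1 dropped to 180, 295 and 177 CPM in KO and 262, 446, 366 and 195 CPM in WT, a log2 difference of -1.88 (SE 0.17, edgeR adjusted p 3.24e-13) or 3.69-fold. Hoxa10 fell by 2.07 (SE 0.21), Hoxa5 by 1.40 (SE 0.17) and Hoxa9 by 1.08 (SE 0.11) on the log2 scale. Hoxb4, with a fall of 0.86 (SE 0.17), changed less than the other Hoxb members, which fell by 1.79 (Hoxb3) to 3.24 (Hoxb5), though these differences between genes were not tested. Hoxa7 stood at 42.1, 35.0 and 43.9 CPM in KO and 33.5, 40.9, 50.4 and 34.8 CPM in WT, and was the member that did not pass (log2 difference -0.16, SE 0.11, edgeR adjusted p 0.212). Without KO replicate 1 it did (-0.27, adjusted p 0.0281). The median over the 10 members was -1.84, against -0.04 over all genes. Granule-gated cells held a median of 15661 to 21827 UMIs per library and non-cycling stem-gated cells 4255 to 7346, so CPM, not UMIs per cell, is compared.

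Flt3-gated, megakaryocyte-gated and erythroid-gated cells reached 20 cells in few libraries, and their values rest on those. Flt3-gated cells came from KO replicates 1 and 3 and WT replicate 4. Of the members, only Hoxb5 was called, lower, in a comparison that called 2.02% of all genes lower and 1.11% higher. It had 3 UMIs in 558 cells where the stem-gated level would give 22.3, a ratio of 0.135 (95% exact Poisson interval 0.0277 to 0.393, counting error only). Leaving out KO replicate 3 ended the call (edgeR adjusted p 0.0704), as did leaving out WT replicate 4 (adjusted p 0.301). Meis1 stood at 770, 479 and 464 CPM in these 3 libraries, with a log2 difference of -0.54 (SE 0.24, edgeR adjusted p 0.262).

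Megakaryocyte-gated cells, from KO replicate 3 (293 cells) and WT replicate 4 (210 cells), kept Meis1 at 551 and 582 CPM, beside 592 and 616 CPM in the stem-gated cells of the same libraries. The log2 difference was -0.39 (SE 0.26, edgeR adjusted p 0.344), which does not show that the levels are alike. Hoxa9 fell by 0.98 on the log2 scale (SE 0.18, edgeR adjusted p 6.24e-05), to 100.1 and 121.6 CPM. Hoxa7 fell by 0.56 (SE 0.18, edgeR adjusted p 0.0231). Leaving out KO replicate 3 ended that call (-0.48, adjusted p 0.394), as did leaving out WT replicate 4 (-0.62, adjusted p 0.0558). These were the 2 members called, both lower, where 7.79% of all genes were called lower and 8.09% higher. Leaving Nkg7 out of the lymphoid gate, an alternative added after the data were seen, moved cells into this state and raised the count to 6 members, and that of all genes called from 2314 to 3807.

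All 10 members were called lower in erythroid-gated cells, where 24.5% of all genes were called lower and 21.9% higher. These too came only from KO replicate 3 (65 cells) and WT replicate 4 (117 cells). Hoxa9 stood at 71.2 and 30.4 CPM (log2 difference -2.09, SE 0.21, edgeR adjusted p 1.41e-12), Hoxa7 at 28.5 and 11 CPM (-1.63, SE 0.24) and Meis1 at 343 and 134 CPM (-1.57, SE 0.29, edgeR adjusted p 1.75e-05). In each of these 3 genes the KO library was higher. The Hoxb values rest on few molecules. Hoxb5 had 1 UMI where the stem-gated level would give 23.2 (ratio 0.0432, 95% exact Poisson interval 0.00109 to 0.241) and Hoxb2 had 3 where it would give 19.4 (ratio 0.155, interval 0.0319 to 0.452). Without WT replicate 4 the count of called members was 5, and that of all genes called fell from 6761 to 2031. Hoxa5 (adjusted p 0.066), Hoxb2 (0.651), Hoxb3 (0.335), Hoxb3os (0.574) and Meis1 (0.0617) then lost their calls. Without KO replicate 3 Hoxb4 lost its call (adjusted p 0.163), and without KO replicate 1, which only adds to the estimate of spread, Hoxb3os did (adjusted p 0.0531).

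**Figure D2:**
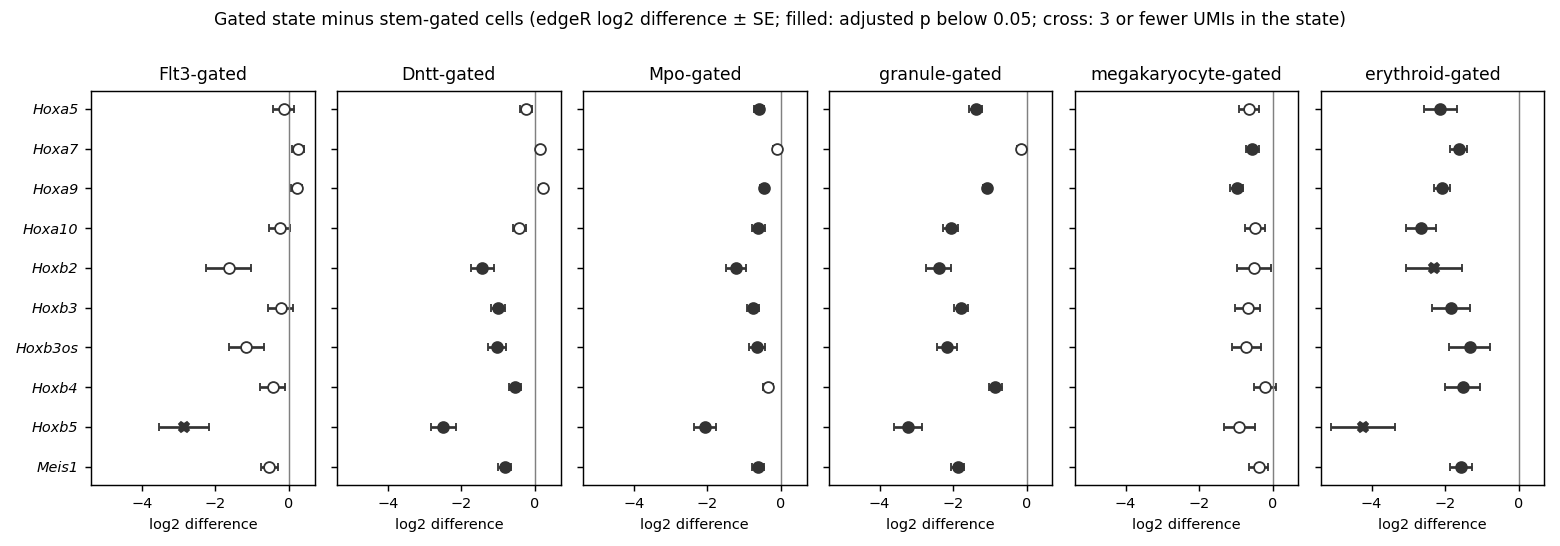
The log2 difference of each gated state from stem-gated cells for the 10 genes (points, with bars of 1 SE on each side), from 1 edgeR fit with library as a block. Filled points passed an adjusted p of 0.05, open points did not, and crosses mark values from 3 or fewer UMIs in the state. Called values lie left of 0 in every panel and number 1 (Flt3), 6 (Dntt), 8 (Mpo), 9 (granule), 2 (megakaryocyte) and 10 (erythroid), where 2.02%, 14.7%, 11.5%, 30.2%, 7.79% and 24.5% of all genes were called lower.

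Stem-gated cells were further divided by mitotic genes such as Mki67 and Top2a. Cycling stem-gated cells had less of 4 members than non-cycling ones, where 9.0% of all genes were called lower and 10.8% higher. Hoxa9 fell by 0.39 (SE 0.11, edgeR adjusted p 0.00423), Hoxb3os by 0.74 (SE 0.23, edgeR adjusted p 0.0122), Hoxa5 by 0.47 (SE 0.16, edgeR adjusted p 0.0255) and Hoxb3 by 0.50 (SE 0.17, edgeR adjusted p 0.0311) on the log2 scale. Meis1 had a log2 difference of -0.40 (SE 0.16, edgeR adjusted p 0.0706), and passed without KO replicate 1 (-0.42, adjusted p 0.0407). The count of 4 depended on single libraries. Hoxa5 lost its call without KO replicate 3, WT replicate 2 or WT replicate 3 (adjusted p 0.0684, 0.0614 and 0.123). Hoxb3 lost it without KO replicate 2, KO replicate 3, WT replicate 1 or WT replicate 2 (adjusted p 0.111, 0.0615, 0.108 and 0.0806). Hoxb3os lost it in the WT libraries alone (adjusted p 0.0875) and with gates per 10000 UMIs (adjusted p 0.0665), and Hoxb3 in the WT libraries alone (adjusted p 0.342). Hoxa10 gained a call without KO replicate 1 or KO replicate 2 (adjusted p 0.00917 and 0.0442), and Hoxb4 without WT replicate 4 (adjusted p 0.0363).

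Set in order over all 15 gated states of the fit, neighbouring levels mostly did not differ past the threshold. Of 136 pairs of neighbouring states in the orders of the 10 genes, 1 pair differed at an adjusted p below 0.05. That pair was Hoxa7 in megakaryocyte-gated against erythroid-gated cells (log2 difference 1.07, SE 0.27, edgeR adjusted p 0.00215). Neighbours were picked by sorting the same fitted levels, which by itself makes calls rare, so nothing is read from this count. Pairs of states that shared no library were not tested. Non-cycling stem-gated cells stood first for Hoxa5, Hoxa10, Hoxb2, Hoxb3os, Hoxb5 and Meis1. Flt3-gated and Dntt-gated cells stood ahead of them for Hoxa7 and Hoxa9, MHC class II-gated cells for Hoxb3 and ungated cells for Hoxb4, without passing the test. Early lymphoid cells, gated by Il7r, Rag1 and Rag2, had 0 UMIs of Hoxb5 in 362 cells of 6 libraries. The stem-gated level would give 23.5 (ratio 0, 95% exact Poisson interval 0 to 0.157). Hoxb2 had 1 UMI there where that level would give 25.1 (ratio 0.0399, 95% exact Poisson interval 0.00101 to 0.222). Hoxa9 in the same cells was 0.28 lower on the log2 scale than in non-cycling stem-gated cells (SE 0.12, edgeR adjusted p 0.0572).

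**Figure D3:**
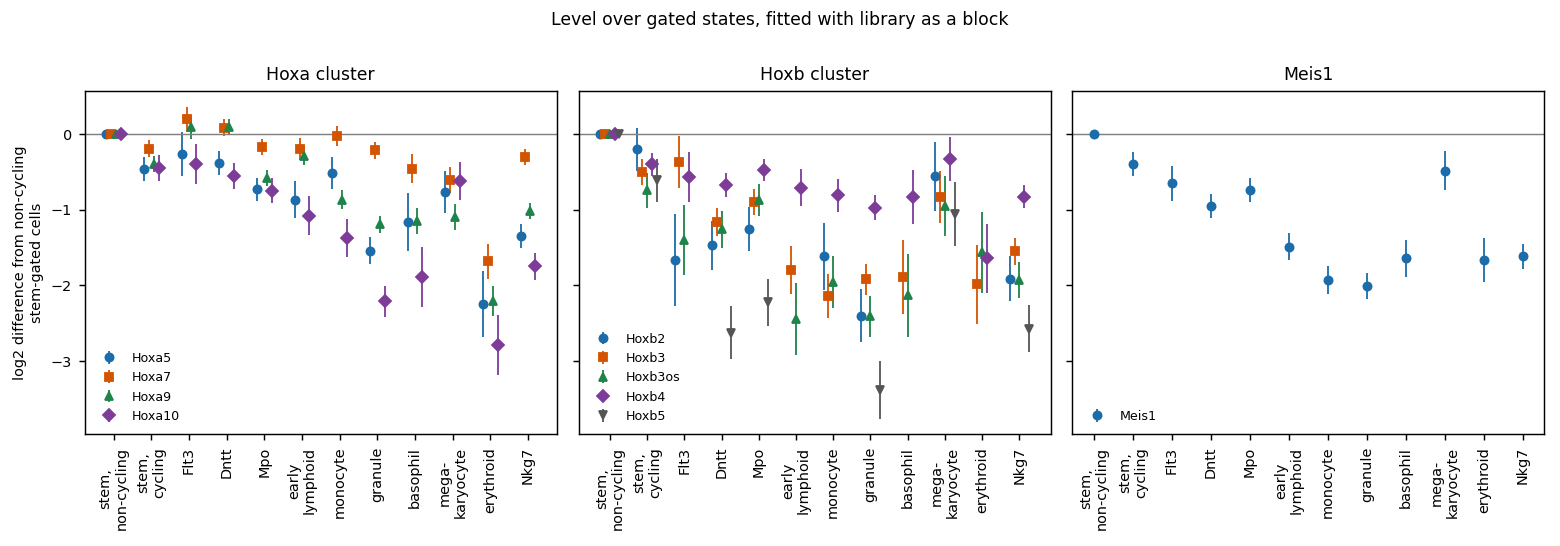
The log2 difference from non-cycling stem-gated cells (vertical axis, bars of 1 SE on each side) over 12 gated states (horizontal axis) for the Hoxa members, the Hoxb members and Meis1, from the edgeR fit with library as a block. States with 3 or fewer UMIs of a gene are left out. Hoxa7 stays within 0.61 of the reference in all states shown but the erythroid one, and Hoxb5 lies lowest among the Hoxb members in the granule gate, at -3.38.

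Detection per cell was compared after thinning each cell to 3000 UMIs. In non-cycling stem-gated cells, Meis1 was detected in 82.3% to 98.3% of the cells of a library, Hoxa9 in 23.6% to 48.5%, Hoxa7 in 12.6% to 17.3% and Hoxb4 in 2.0% to 8.3%. Before thinning the ranges were 95.2% to 99.8% for Meis1, 31.1% to 71.4% for Hoxa9, 14.4% to 36.8% for Hoxa7 and 4.7% to 15.7% for Hoxb4. In granule-gated cells after thinning, Meis1 was detected in 36.4% to 69.2% and Hoxa9 in 8.2% to 22.0%. As a background, the cells that met the T and NK gate without Nkg7 were read, and only WT replicate 4 held more than 12 of them. Its 78 such cells had a median of 6582 UMIs before thinning, against 6141 in the non-cycling stem-gated cells of that library. Of the 54 that could be thinned, 48.1% had Meis1 and 31.5% had Hoxa9. Whether these cells are lymphocytes or progenitors with lymphoid genes was not tested. The shares of Meis1 and Hoxa9 in granule-gated cells lay below or near that background in WT replicate 4 (36.4% and 20%), and nothing is read from them. Within thinned stem-gated cells, Hoxa9 was seen in 42.5% of 1622 cells with Meis1 and 38.4% of 388 without it in KO replicate 3, and in 47.3% of 2523 and 46.9% of 554 in WT replicate 4. The other libraries held only 14 to 60 cells without Meis1, and nothing is read from them.

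The second question was whether the genes differ between KO and WT. None of the 10 members was called in all kept cells, in a comparison that called 1.11% of 14608 genes, nor in stem-gated cells, where 0.101% of genes were called (13 of 12920). In Dntt-gated and Mpo-gated cells 0 of the 8 members tested was called by edgeR, beside 0.229% and 0.182% of all genes. Unadjusted, 577 genes in stem-gated cells had a p below 0.05. DESeq2 called 2 members and 856 genes in all kept cells, 1 member and 59 genes in stem-gated cells, and 1 member and 58 genes in Mpo-gated cells, where edgeR called 162, 13 and 21 genes.

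In stem-gated cells the KO and WT libraries did not overlap for Hoxb3os, 1 of the 10 members. How many of all genes separate this way was not counted, and with 3 and 4 libraries some do so by chance. The comparison called 0.101% of all genes, which is another measure. Hoxb3os stood at 24.0, 16.8 and 10.4 CPM in KO (17.1 ± 6.79, SD, n = 3) and at 7.86, 7.39, 6.38 and 5.84 CPM in WT (6.87 ± 0.924, SD, n = 4). All 3 KO libraries were above all 4 WT libraries. The log2 difference was 1.29 (SE 0.22, edgeR adjusted p 0.0524), which missed the threshold. It was 1.5 from the means within list A and 0.83 between the 2 libraries of list B. Over 17 alternatives the difference lay between 1.04 and 1.55, and 11 of them called it, among them the fit without KO replicate 2 (adjusted p 0.032). The fits without KO replicate 3 (0.0444) and without WT replicate 4 (0.0376) called it too, but both rest on list A, as the list covariate then takes up the lone library of list B. DESeq2 gave an adjusted p of 0.00119. In Mpo-gated cells Hoxb3os stood at 15.4, 11.4 and 6.29 CPM in KO and 4.28, 6.41, 2.46 and 2.97 CPM in WT. Here KO replicate 3 lay just under WT replicate 2, and the log2 difference was 1.46 (SE 0.30, edgeR adjusted p 0.0757). Without KO replicate 2 it was called (1.52, adjusted p 0.0213). In Dntt-gated cells the difference was 1.39 (SE 0.41, edgeR adjusted p 0.357), and the labels overlapped. Hoxb2, too low to be tested there, did not overlap, with 2.38, 3.90 and 2.14 CPM in KO and 1.38, 1.78, 0.934 and 1.44 CPM in WT. These values rest on 3 to 18 UMIs a library, and how many of all genes separate this way was not counted.

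The genes that Hoxb3os overlaps on the other strand moved less. In stem-gated cells the log2 difference between KO and WT was 0.20 for Hoxb3 (SE 0.20) and 0.40 for Hoxb2 (SE 0.31), each with an edgeR adjusted p of 1.00. Of the other Hoxb members, Hoxb5 had a difference of 0.63 (SE 0.28, edgeR adjusted p 1.00) and Hoxb4 of 0.11 (SE 0.15). Whether Hoxb3os differs from its neighbours in this contrast was not tested.

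Hoxa9 was lower in KO in both lists. In stem-gated cells the 2 KO libraries of list A (103 and 88.6 CPM) lay below its 3 WT libraries (127 to 143 CPM), and the KO library of list B (205 CPM) below its WT library (238 CPM). The log2 difference was -0.40 (SE 0.15, edgeR adjusted p 0.864), and it was -0.40 in Dntt-gated and -0.33 in Mpo-gated cells. In all kept cells Hoxa9 stood at 56.1, 54.1 and 139 CPM in KO and 99.9, 97.8, 127 and 183 CPM in WT, with a log2 difference of -0.71 (SE 0.16, edgeR adjusted p 0.0760). List A alone called it (-0.88, adjusted p 0.046). The fit that left out WT replicate 4 (-0.87, adjusted p 0.050) rests on the same libraries. DESeq2 (-0.70, adjusted p 0.0022) and edgeR with no gene filter (-0.69, adjusted p 0.024) called it as well. So did a fit that also blocked on replicate number (-0.73). The label difference in that fit rests only on replicates 1 and 2 of each label, again all of list A.

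Meis1 in all kept cells was 357, 636 and 384 CPM in KO and 762, 1025, 829 and 445 CPM in WT, a log2 difference of -0.55 (SE 0.22, edgeR adjusted p 0.221). A fit that also blocked on replicate number called it (-0.77). The label difference in that fit rests only on replicates 1 and 2 of each label, all of list A. In stem-gated cells the main difference was 0.01 (SE 0.22). The mix of states also differed between the labels. Whether it bears on the differences in all kept cells was not tested. Granule-gated cells, where Meis1, Hoxa9 and Hoxa10 were low, made up 19.8%, 28.1% and 7.22% of the kept cells of the KO libraries and 6.83%, 4.44%, 1.73% and 1.24% of those of the WT libraries. With the granule-gated, secondary-granule, MHC class II and Nkg7-gated cells left out, the difference was -0.05 (SE 0.16) for Meis1, -0.18 (SE 0.14) for Hoxa10 and -0.50 (SE 0.15) for Hoxa9. That of Hoxb3os became 1.26 (SE 0.20, edgeR adjusted p 0.0317). With every cell thinned and equal numbers of cells per library, it was 0.28 (SE 0.31).

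**Figure D4:**
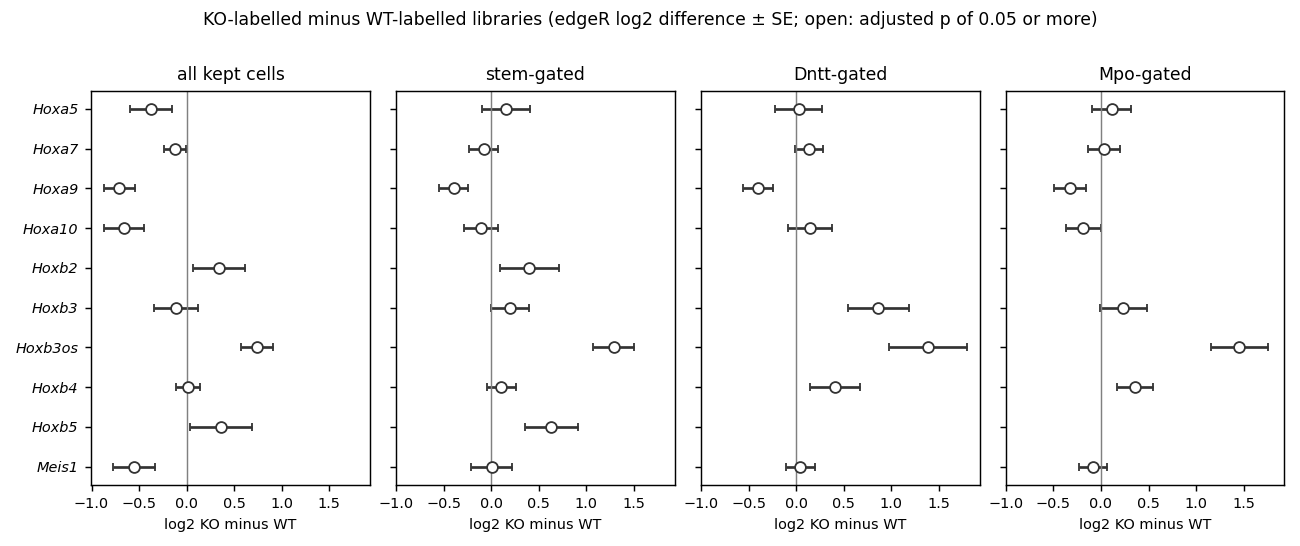
The log2 difference between KO and WT libraries for the 10 genes (points, with bars of 1 SE on each side) in all kept cells and in stem-gated, Dntt-gated and Mpo-gated cells, from edgeR fits with the barcode list as a covariate. All points are open because none passed an adjusted p of 0.05, and genes too low to be tested have no point. Hoxb3os lies farthest to the right in each panel, at 0.74, 1.29, 1.39 and 1.46.

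The label difference was also compared between states. In none of the 9 members tested did it differ between Dntt-gated and stem-gated cells or between Mpo-gated and stem-gated cells, beside 0.0166% of all genes (2 of 12034) and 0 genes by edgeR. Genes with an unadjusted p below 0.05 numbered 787 and 379. The largest value was that of Hoxb3 in Dntt-gated cells, at 0.71 (SE 0.27, edgeR adjusted p 0.701). A label comparison in Flt3-gated cells was not run, because no WT library of list A held 20 such cells.

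The remaining Hox genes were sparse. Of 36 other symbols of the 4 clusters, 10 had no UMI in any kept cell, 29 had under 100 UMIs over all libraries, and 3 had over 1000. Those 3 were Hoxa3 (5306 UMIs), Hoxaas3 (1766) and Hoxb5os (1056). In granule-gated cells 5 of the 5 that could be tested fell, with a median log2 difference of -1.89, among them Hoxa3 (-1.89, SE 0.15), Hoxb5os (-1.99, SE 0.30) and Hoxb6 (-2.29, SE 0.38). The other 31 did not pass the filter on low counts, so this count says nothing of them.

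Among the TALE partners, Pbx3, a cofactor that binds DNA with Hox proteins, fell by 0.86 (SE 0.14) in Dntt-gated cells and by 0.82 (SE 0.14) in granule-gated cells on the log2 scale. In cycling stem-gated cells it rose by 0.40 (SE 0.13). Meis3, a relative of Meis1, fell by 1.87 (SE 0.56) in granule-gated cells, and the repressor gene Tgif1 fell by 1.07 (SE 0.18) in megakaryocyte-gated cells. The median of the list in granule-gated cells was -0.05, against -0.04 over all genes. No TALE partner was called between KO and WT in the 4 comparisons of labels.

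Of 30 regulators of chromatin at Hox clusters, such as Kmt2a and its partners and the Polycomb subunits, 27 were tested. In granule-gated cells 11 rose and 9 fell, where 29.5% of all genes rose and 30.2% fell. In Dntt-gated cells 7 rose and 3 fell (17.0% and 14.7% of all genes), and in cycling stem-gated cells 7 rose and 6 fell (10.8% and 9.0%). None of these counts was tested against the share of all genes, so none is read as a trait of the list. Ezh2, the methyltransferase of Polycomb complex 2, rose by 0.48 (SE 0.10) in Dntt-gated, 0.56 (SE 0.09) in Mpo-gated, 0.82 (SE 0.10) in granule-gated and 1.36 (SE 0.10) in cycling stem-gated cells. Aff4, a subunit of the super elongation complex, fell by 0.88 (SE 0.09) in granule-gated cells. No regulator was called between KO and WT.

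Of 15 genes known as targets of Hoxa9 and Meis1 in leukemia models, 4 rose and 9 fell in granule-gated cells, with a median log2 difference of -0.53 against -0.04 over all genes, of which 29.5% rose and 30.2% fell. Bcl2 rose by 1.74 (SE 0.14) and Cdk6 by 1.13 (SE 0.11), while the kinase gene Pim1 fell by 1.09 (SE 0.11). In erythroid-gated cells 2 rose and 11 fell (21.9% and 24.5% of all genes), with Erg lower by 1.87 (SE 0.21) and Cd34 by 1.66 (SE 0.18). Between KO and WT, Trib2 was lower in all kept cells (log2 difference -1.48, SE 0.29, edgeR adjusted p 0.0485) and Pim1 higher in Dntt-gated cells (0.84, SE 0.17, edgeR adjusted p 0.0451). These were the calls on this list in the comparisons of labels.

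Patterns over states were compared as the Pearson correlation of mean log2 CPM over the 10 states with at least 20 cells in 3 or more libraries. The states share libraries and differ in depth, so these values are descriptions. Cells gated by Flt3 and by basophil and mast-cell genes entered with KO replicates 1 and 3 and WT replicate 4 only. List B therefore weighs more in these states than in those with all 7 libraries. Levels of members differ between lists, and this was not removed from the correlations. Among the members, Meis1 was most like Hoxb3 (r = 0.98), Hoxa5 like Hoxa10 (0.93) and Hoxb2 like Hoxb5 (0.93). Hoxa7 was least like the Hoxb members, with 0.21 to Hoxb5 and 0.22 to Hoxb4, and most like Hoxa9 (0.84). Of 9090 other genes with a mean of at least 10 CPM, Meis1 was most like 8430419K02Rik (0.996), Itih5 (0.989) and Ppp6r2 (0.988). Hoxa9 was most like Dennd3 (0.990), Gpr132 (0.982) and Kcnn4 (0.966), and Hoxb5 like Nbea (0.977), B3galt1 (0.975) and Epb41 (0.972). The nearest gene to Hoxb4 was Wwc2 (0.985), to Hoxb3 Supt6 (0.991), to Hoxb3os Pfkm (0.973), to Hoxb2 Dnmbp (0.972), to Hoxa5 Kmt2e (0.981), to Hoxa7 Cdip1 (0.955) and to Hoxa10 Ago1 (0.984).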

How the data were processed

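Single-cell 3' RNA libraries of 7 bone marrow LSK samples (3 labelled KO, 4 labelled WT) were read as the deposited UMI counts per gene and barcode. Per the submitters' processing notes, Cell Ranger 7.0.0, Seurat 4.4.0 and the build mm10 were used. Which parameters, and whether counting used strand, is not given in the sources used here. The matrices are those the authors deposited, and no cell annotation was used.

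Cells with at least 1000 UMIs, at least 500 genes and at most 10% mitochondrial UMIs were kept. Gates on summed marker UMIs, taken in a set order, gave the states. Counts were summed per library and state (at least 20 cells). CPM is UMIs per 1000000 UMIs of that sum. edgeR 4.0.16 (R 4.3.3; TMM, expression filter, quasi-likelihood test) was fitted over all genes, with the barcode list as covariate between labels and the library as block between states. Benjamini-Hochberg adjusted p below 0.05 counted as called. DESeq2 1.42.0, other filters, gates and covariates, thinning to 3000 UMIs, and each library left out were alternatives. Leaving Nkg7 out of the lymphoid gate was added after seeing the data. No doublet caller was run. An alternative left out cells that met gates of 2 or more lineages (2-lineage cells). Gates of 1 lineage, such as megakaryocyte and erythroid, counted once, and the Mpo and Flt3 gates did not count. The fits were tested on simulated data.

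The members and gene lists were chosen with earlier results of these data known. Named genes are the 10 members, the 3 genes most like each over states, and for each list the 3 called genes of smallest p. Intervals cover counting error only. Whether replicate numbers pair the samples is not settled, and the main fits did not pair them. Deviations of same-numbered libraries correlated at 0.53 (replicate 1), 0.72 (replicate 2) and -0.36 (replicate 3). KO replicate 1 correlated less with WT replicates 2 and 3 (0.33 and 0.23), and KO replicate 2 less with WT replicates 1 and 3 (0.50 and 0.32). KO replicate 3 and WT replicate 3 lie in different barcode lists, so their value says nothing of pairing. Some items of the gene lists and sequences are not reported here.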

Additional observations from a re-analysis of the deposited data

Results flagged for a closer look

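In groups of 4 libraries, a library was singled out where its gap to the nearest other, as a share of the group's range, exceeded Dixon's 95% critical value. Chance gives about 1 in 20 groups, and 3 of the 40 groups checked had such a library. All 3 were WT replicate 4. Hoxa9 stood at 238 CPM in its stem-gated cells, where the other WT libraries lay between 127 and 143 CPM. Hoxb4 stood at 7.06 CPM in its stem-gated cells, where the others lay between 20.6 and 21.4 CPM. In Mpo-gated cells Hoxb4 stood at 5.57 CPM, against 13.2 to 14.2 CPM in the others. WT replicate 4 is the only WT library of barcode list B. The KO library of that list, KO replicate 3, stood at 205 CPM (Hoxa9), 8.03 CPM (Hoxb4, stem-gated) and 6.01 CPM (Hoxb4, Mpo-gated).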

How the results depend on the processing

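Of the log2 differences of single members, 46 changed sign under an alternative, none of them of a called result. The sizes after the change were at most 0.28, and the cause was not tested. With single libraries left out, the label difference in all kept cells ranged from -0.35 to 0.14 (Hoxb3). In stem-gated cells it ranged from -0.28 to 0.43 (Hoxa5), -0.23 to 0.053 (Hoxa7), -0.22 to 0.016 (Hoxa10) and -0.20 to 0.15 (Meis1), in Dntt-gated cells from -0.19 to 0.28 (Hoxa5), -0.26 to 0.31 (Hoxa10) and -0.060 to 0.12 (Meis1), and in Mpo-gated cells from -0.013 to 0.28 (Hoxa5), -0.16 to 0.14 (Hoxa7) and -0.062 to 0.48 (Hoxb3). The Flt3 difference of Hoxa9 ranged from -0.035 to 0.31. Other sign changes between labels were, in all kept cells, 0.051 (Hoxa5) and 0.27 (Hoxb3) with the granule, secondary-granule, MHC class II and Nkg7 gates left out, 0.014 (Hoxb3, thinned) and -0.054 (Hoxb4, no list covariate). In stem-gated cells they were 0.045 and -0.043 (Hoxa10 and Meis1, no list covariate), -0.0061 (Meis1, no gene filter) and -0.00096 (Meis1, at least 3000 UMIs per cell). In Dntt-gated cells Hoxa5 gave -0.017 (no gene filter), -0.091 (mitochondrial share of at most 5%) and -0.0079 (Nkg7 out of the gate). Hoxa10 gave -0.26 (list A), -0.10 (2-lineage cells left out) and -0.075 (gates per 10000 UMIs), and Meis1 -0.0020 (no gene filter) and -0.051 (gates per 10000 UMIs). In Mpo-gated cells Hoxa5 gave -0.056 (mitochondrial 5%) and Hoxa7 -0.015 (gates per 10000 UMIs, and also Nkg7 out). Between states they were -0.012 (Hoxa9, Flt3-gated, gates per 10000 UMIs), 0.12 and 0.14 (Hoxb3 in Flt3-gated and Hoxb3os in megakaryocyte-gated cells, WT libraries alone), 0.053 (Hoxb4, megakaryocyte-gated, gates per 10000 UMIs) and 0.031 (Hoxb2, cycling, list A). The Dntt difference of the label effect of Hoxa9 was 0.0075 with the barcode list by state.

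Members called between labels numbered 2 with DESeq2, 2 with no gene filter, 1 in list A and 1 with the 4 gates left out in all kept cells. In stem-gated cells the number was 1 under DESeq2, no filter, list A, mitochondrial 5%, at least 3000 UMIs, gates per 10000 UMIs and Nkg7 out. In Mpo-gated cells it was 1 under DESeq2, no filter and mitochondrial 5%. Leaving out single libraries gave 0 to 1 members in all kept, stem-gated and Mpo-gated cells. All genes called between labels numbered 856, 59, 39 and 58 with DESeq2 and 547, 208, 131 and 197 with no filter (all kept, stem-gated, Dntt-gated, Mpo-gated), and 0 in each with no list covariate. List A gave 362 (all kept), 20 (stem-gated) and 38 (Mpo-gated). With 2-lineage cells left out the numbers were 47 (all kept) and 9 (Dntt-gated), and 41 with the 4 gates left out. Stem-gated cells gave 21 with mitochondrial 5%, 20 with 3000 UMIs and 22 with gates per 10000 UMIs, and Mpo-gated cells 32 with mitochondrial 5%. Single libraries left out gave 16 to 349 (all kept), 2 to 33 (stem-gated), 14 to 43 (Dntt-gated) and 11 to 75 (Mpo-gated). Between states, Flt3-gated cells had 2 called members with no filter, gates per 10000 UMIs or 2-lineage cells left out, 0 in list A and in WT alone, and 0 to 1 with a library left out. All genes there numbered 879 (no filter), 16 (list A), 695 (2-lineage cells left out) and 50 to 444 (a library left out). Megakaryocyte-gated cells had 1 member in WT alone, 6 with Nkg7 out and 1 to 2 with a library left out, and 631, 3807 and 131 to 2695 genes. With a library left out, erythroid-gated cells had 5 to 10 members and 2031 to 6934 genes. Cycling cells then had 2 to 6 members and 2265 to 3173 genes, against 4 and 2905 in the main fit. Cycling cells had 7 members with 2-lineage cells left out and 7 with Nkg7 out. The numbers of all genes called under these settings are not reported here, so nothing is read from that rise.

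The main fits did not pair the samples by replicate number, and whether these numbers pair them is not settled. With the replicate block and the barcode list, 4 members and 2277 genes were called in all kept cells, and 1 member and 338 genes in stem-gated cells. In Dntt-gated and Mpo-gated cells 207 and 12 genes were called. The 4 members were Hoxa9 (-0.73), Meis1 (-0.77), Hoxa10 (-0.79) and Hoxb3os (0.77), and the 1 in stem-gated cells was Hoxb3os (1.44). Such a fit leaves little of the 7 libraries to estimate the spread. Its block and list terms take up KO replicate 3, WT replicate 3 and WT replicate 4. The label difference then rests only on replicates 1 and 2 of each label, all of list A. Differences that changed sign under this block were -0.051 (Meis1, stem-gated) and -0.24 (Hoxa10, Dntt-gated). Alternatives of a label comparison in Flt3-gated cells were not run. Depth limits Hoxb2 and Hoxb5 most, with 329 and 340 UMIs in stem-gated cells.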
